A study of Homo sapiens with 6 samples.

Results

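The 35 genes described here encode proteins of homologous recombination and of the Fanconi anaemia pathway, with the checkpoint kinases that act beside them. They were taken by gene symbol from the deposited gene table, which lists 46427 genes. All 35 were found, and all 35 passed the filter on low counts that left 16557 genes for testing. The cells were MDA-MB-231/RR, a radioresistant derivative of the MDA-MB-231 line of human breast cancer. In 3 libraries the cells had been co-treated with ortho-topolin riboside (oTR, a plant cytokinin nucleoside) and melatonin (the pineal hormone), and 3 libraries came from control cells. Both groups share the radioresistant background and the growth medium. The labels state neither doses nor durations, and no library with oTR alone or melatonin alone was analysed here. They also do not say whether replicate libraries stem from separate cultures: p-values therefore measure the spread among these libraries, which may be technical.

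The libraries held between 50569611 and 72204161 estimated counts in co-treated cells and between 56521572 and 72309015 in control cells. The first principal component of all tested genes separated the co-treated from the control libraries and carried 41% of the variance. The label of the line was checked against markers. VIM, CD44 and AXL, taken as high in this line, were listed at 2037 to 2694, 249 to 265 and 342 to 474 TPM (a level scaled to transcript length and library). S100A4, also taken as high, was listed at only 10.5 to 21 TPM. The receptors ESR1 and PGR and the epithelial cadherin CDH1 did not exceed 0.0243 TPM. The receptor gene ERBB2 was listed at 28.3 to 37.4 TPM and the epithelial gene EPCAM at 0.113 to 0.555 TPM. The leukocyte gene PTPRC and the fibroblast gene DCN were listed at 0 in all 6 libraries, although COL1A1 was at 6.79 to 9.24 TPM. In bulk RNA, fewer cells in a given cycle phase and less RNA per cell cannot be told apart.

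Homologous recombination repairs a double-strand break by copying the sister chromatid. The MRE11-RAD50-NBN complex finds the break, nucleases such as EXO1 cut back its ends to single strands, and BRCA1, PALB2 and BRCA2 prepare those strands to invade the sister. The Fanconi pathway handles DNA crosslinks: a core complex attaches ubiquitin to the FANCD2-FANCI pair, and nucleases and recombination proteins then finish the repair. ATM and ATR are the kinases that signal breaks and stalled forks, mainly through CHEK2 and CHEK1. Cells use these routes in S and G2 phase, and many of the genes are transcribed most in those phases.

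Of the 35 genes, 9 were higher in co-treated cells and none was lower at a Benjamini-Hochberg adjusted p of 0.05 in edgeR's quasi-likelihood test (BRCA1, RAD54B, EXO1, ATM, RAD50, FANCB, FANCM, CHEK2 and FANCF). These 9 are 25.7% of the set, beside 16.6% of all tested genes called higher and 17.1% called lower. At an unadjusted p under 0.05 in the same edgeR test, 16 of the 35 genes were higher and 4 lower (PALB2, XRCC3, FANCC and FANCG). The share of all tested genes at that cut was not counted. DESeq2 called 8 genes higher and 2 lower, FANCG and XRCC3, where it called 17.2% of all genes lower and 16.7% higher. The differences were small: the largest among the 9 was 1.34-fold, and the median log2 fold change of the 35 genes was 0.06, beside 0.00 for all tested genes. In 12 genes (34.3%) all co-treated libraries lay above all control libraries, beside 23.3% of all tested genes. In 4 genes (11.4%; PALB2, FANCA, FANCC and FANCL) they lay below, beside 24.1%. No count of the set was tested against these backgrounds.

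**Figure D1:**
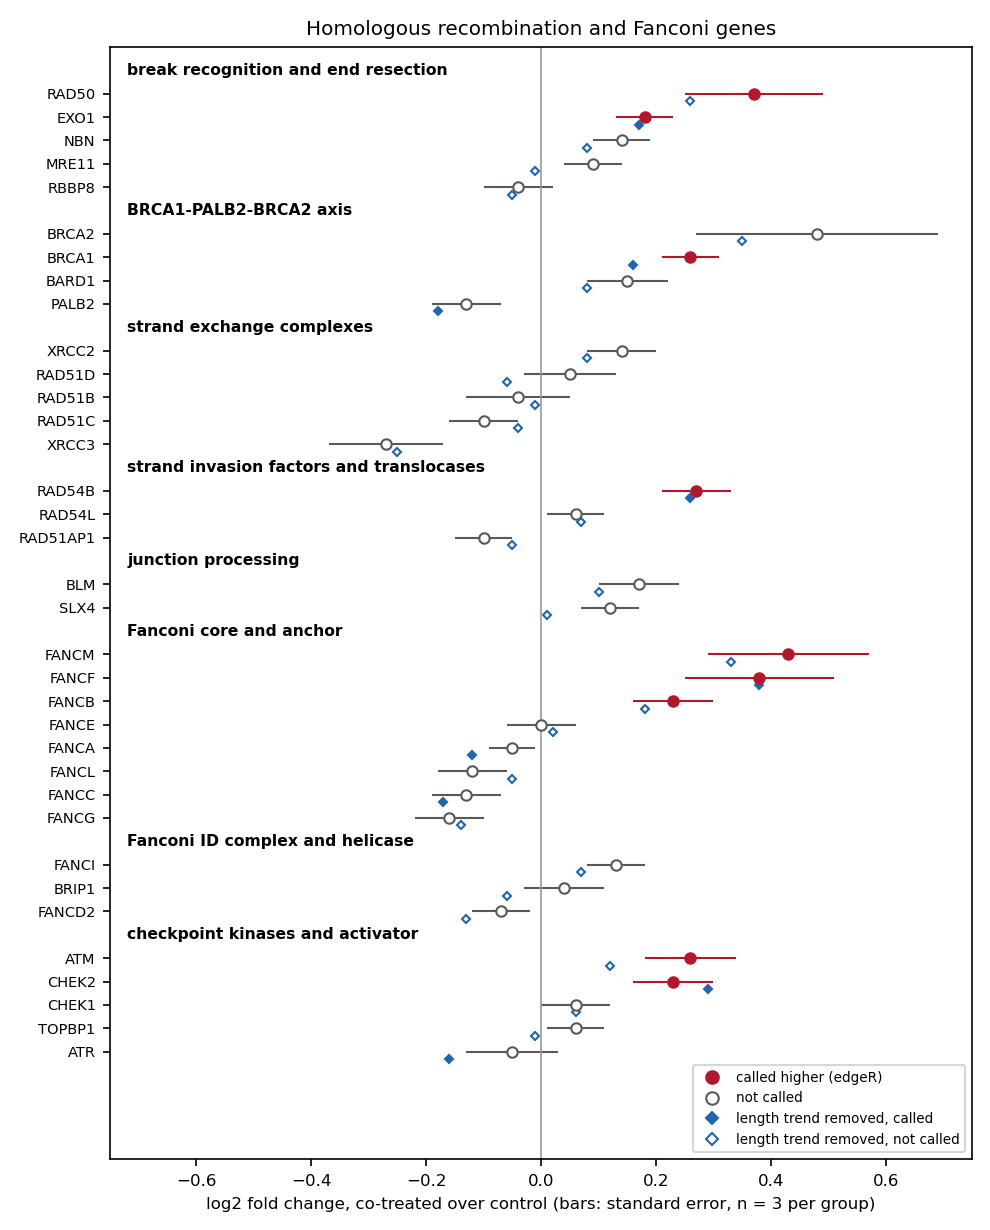
Log2 fold change (x axis, co-treated over control) of each of the 35 genes, grouped by role, with bars of 1 standard error. Filled red circles are the 9 genes called higher, open circles the 26 not called, and blue diamonds the values after the trend with transcript length was removed, filled where called. The called genes lie in 5 of the 8 roles, and the genes of the strand exchange complexes lie on both sides of 0.

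Among the genes of break recognition and end resection, RAD50 and EXO1 were higher, while the other 3 were not called. EXO1, the exonuclease that extends resection (gene ID 9156, GRCh38 chromosome 1, 241847967 to 241889939), had 82.3, 75.8 and 74.1 CPM (counts scaled to library size with relative log expression factors) in co-treated libraries 1 to 3. Control libraries had 69.8, 67.8 and 66.7 CPM. The groups did not overlap, and the log2 fold change was 0.18 ± 0.05 (standard error; edgeR adjusted p = 0.0168). RAD50, the ATPase of the break-binding complex (gene ID 10111, chromosome 5, 132556977 to 132646349), had 73, 57 and 54.7 CPM in co-treated and 55.9, 45.2 and 41.8 CPM in control libraries. Library 1 was the highest of its group on both sides, and the lowest co-treated value lay under the highest control value. The log2 fold change of RAD50 was 0.37 ± 0.12 (edgeR adjusted p = 0.0312). Its partners MRE11, the nuclease, and NBN, the subunit that recruits ATM, had log2 fold changes of 0.09 and 0.14 (edgeR adjusted p = 0.223 and 0.0629). RBBP8, also called CtIP, which starts resection with MRE11, stood at -0.04 (edgeR adjusted p = 0.581).

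In the BRCA1-PALB2-BRCA2 axis only BRCA1 was called. BRCA1, the scaffold that favours recombination at broken ends (gene ID 672, chromosome 17, 43044295 to 43125364), had 90.2, 84.8 and 80.6 CPM in co-treated libraries and 71, 72.3 and 70 CPM in control libraries. Every co-treated library was above every control library, with means of 85.2 ± 4.81 and 71.1 ± 1.15 CPM (SD, n = 3 each). The log2 fold change was 0.26 ± 0.05 (edgeR adjusted p = 0.00259), a ratio of 1.20. BRCA2, the mediator that acts on resected strands (gene ID 675, chromosome 13, 32315508 to 32400268), had the largest log2 fold change of the set, 0.48 ± 0.21, and was not called (edgeR adjusted p = 0.0998). It had 88.1, 59.2 and 52.9 CPM in co-treated libraries, against 65, 41.7 and 36.8 CPM in control libraries. Libraries numbered 1 were far above the rest in both groups, which gave BRCA2 standard deviations of 18.8 CPM in co-treated and 15 CPM in control cells. BRCA2 was called higher without control library 1 (0.76, edgeR adjusted p = 0.0126) and when both libraries numbered 1 were left out (0.51, edgeR adjusted p = 0.00203). Without co-treated library 1 its value was 0.23 (edgeR adjusted p = 0.385). BARD1, the ubiquitin ligase partner of BRCA1, stood at 0.15 (edgeR adjusted p = 0.114). PALB2, the bridge between BRCA1 and BRCA2, stood at -0.13 (edgeR adjusted p = 0.0959).

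Of the strand invasion factors and translocases, RAD54B was higher. This gene encodes a DNA translocase of the Swi2/Snf2 type (gene ID 25788, chromosome 8, 94371960 to 94475115). It had 34.4, 29.7 and 32.4 CPM in co-treated libraries, against 27.4, 26.9 and 25.6 CPM in control libraries, with no overlap between groups. The log2 fold change was 0.27 ± 0.06 (edgeR adjusted p = 0.00794). Its relative RAD54L stood at 0.06 (edgeR adjusted p = 0.325), and RAD51AP1, which stimulates strand invasion, at -0.10 (edgeR adjusted p = 0.19).

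None of the 5 genes of the strand exchange complexes (RAD51B, RAD51C, RAD51D, XRCC2 and XRCC3), which act after resection, was called. They ran between XRCC2 at 0.14 (edgeR adjusted p = 0.0821) and XRCC3 at -0.27 ± 0.10 (edgeR adjusted p = 0.0542). XRCC3 had 20.7, 27.2 and 25 CPM in co-treated libraries and 26.2, 30.5 and 31.1 CPM in control libraries. Co-treated library 2 lay inside the control range of XRCC3. XRCC3 was called lower in 8 of the 20 alternative analyses, among them DESeq2 (adjusted p = 0.0163), and when co-treated library 2 (-0.35, edgeR adjusted p = 0.0285) or control library 1 (-0.34, edgeR adjusted p = 0.0303) was left out. RAD51B, RAD51C and RAD51D had log2 fold changes of -0.04, -0.10 and 0.05. The junction-processing genes were not called either: BLM, the helicase that dissolves double junctions, stood at 0.17 (edgeR adjusted p = 0.0862), and SLX4, the scaffold of structure-specific nucleases, at 0.12 (edgeR adjusted p = 0.111).

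The Fanconi core complex and its DNA anchor FANCM split: FANCB, FANCF and FANCM were higher, and the other 5 genes had log2 fold changes of 0 or below. FANCM, the translocase that anchors the core complex on DNA (gene ID 57697, chromosome 14, 45135930 to 45200890), had 42.3, 33.7 and 31.2 CPM in co-treated and 33.1, 23.8 and 23 CPM in control libraries. As in RAD50 and BRCA2, libraries numbered 1 were highest in both groups, and the groups overlapped. The log2 fold change of FANCM was 0.43 ± 0.14 (edgeR adjusted p = 0.0355). FANCF, an adaptor of the core (gene ID 2188, chromosome 11, 22622533 to 22625823), was the least abundant of the 35 genes. It had 4.22, 3.17 and 4.19 CPM in co-treated and 2.85, 3.14 and 2.91 CPM in control libraries, and its log2 fold change was 0.38 ± 0.13 (edgeR adjusted p = 0.0441). The lowest co-treated value of FANCF lay just above the highest control value. FANCB, a scaffold of the core (gene ID 2187, chromosome X, 14690863 to 14873255), had 17.5, 16.6 and 15.6 CPM in co-treated and 14.5, 14.8 and 13.2 CPM in control libraries. Its log2 fold change was 0.23 ± 0.07 (edgeR adjusted p = 0.0327), with no overlap between groups. FANCL, the ubiquitin ligase of the core, stood at -0.12 (edgeR adjusted p = 0.184), FANCA at -0.05 (edgeR adjusted p = 0.356), FANCC at -0.13 (edgeR adjusted p = 0.109) and FANCG at -0.16 (edgeR adjusted p = 0.0562). FANCE, the core subunit that contacts FANCD2, stood at -0.00 (edgeR adjusted p = 0.997).

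The ubiquitinated pair downstream of the core was not called. FANCD2 had 80.4, 80.6 and 87.2 CPM in co-treated libraries and 84.1, 89.4 and 86.3 CPM in control libraries. These ranges overlapped, and the log2 fold change was -0.07 ± 0.05 (edgeR adjusted p = 0.333). FANCI, its partner, was the most abundant of the 35 genes per length and stood at 0.13 (edgeR adjusted p = 0.0549), with no overlap between groups. BRIP1, the helicase that binds BRCA1, stood at 0.04 (edgeR adjusted p = 0.686).

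Of the checkpoint genes, ATM and its target kinase CHEK2 were higher, and ATR, CHEK1 and TOPBP1 were not called. ATM (gene ID 472, chromosome 11, 108222484 to 108369102) had 117, 105 and 95.4 CPM in co-treated and 91.9, 93.1 and 79.3 CPM in control libraries. Its groups did not overlap, and the log2 fold change was 0.26 ± 0.08 (edgeR adjusted p = 0.0243). CHEK2 (gene ID 11200, chromosome 22, 28687743 to 28741866) had 12.4, 12.2 and 12.4 CPM in co-treated and 11.1, 9.66 and 10.9 CPM in control libraries. The co-treated libraries of CHEK2 nearly coincided, the control library numbered 2 was the lowest, and the log2 fold change was 0.23 ± 0.07 (edgeR adjusted p = 0.0375). ATR, the kinase of stalled forks, had 51.3, 45.8 and 45.2 CPM in co-treated and 53.7, 50 and 44 CPM in control libraries, overlapping ranges with a log2 fold change of -0.05 ± 0.08 (edgeR adjusted p = 0.623). CHEK1, its target kinase, had 76.5, 69.2 and 66.5 CPM in co-treated and 67.7, 69.6 and 66.5 CPM in control libraries (0.06 ± 0.06, edgeR adjusted p = 0.457). TOPBP1, the activator of ATR, stood at 0.06 (edgeR adjusted p = 0.386). Whether the change in ATM differed from that in ATR was not tested.

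**Figure D2:**
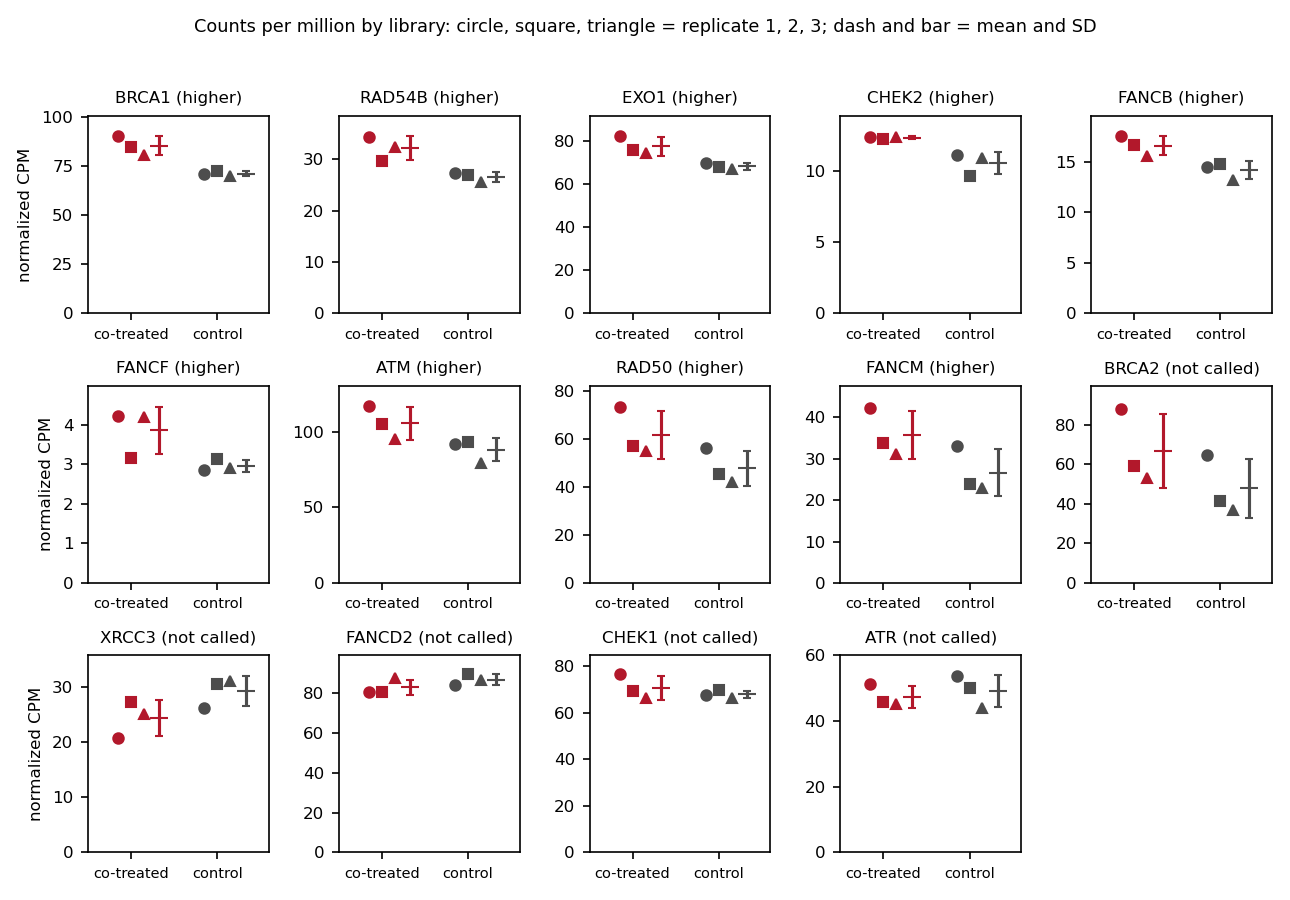
Normalized CPM (y axis, from 0) in each co-treated (left, red) and control (right, grey) library for the 9 genes called higher and for BRCA2, XRCC3, FANCD2, CHEK1 and ATR. Circles, squares and triangles are libraries 1, 2 and 3, and dashes with bars are means and SD. In RAD50, FANCM, BRCA2, RAD54B, EXO1, CHEK2 and ATR the circle is the highest point of both groups. In CHEK2, co-treated libraries 1 and 3 both round to 12.4. In BRCA1 the co-treated points, 80.6 to 90.2, all lie above the control points, 70 to 72.3.

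BRCA1 and RAD54B were the most stable calls. Both were called higher in all 20 alternative analyses, with log2 fold changes between 0.13 and 0.33 for BRCA1 and between 0.15 and 0.45 for RAD54B. The other 7 calls each depended on single libraries. EXO1, ATM and RAD50 kept their call in 3 of the 6 analyses that left out 1 library, FANCB and FANCM in 2, and CHEK2 and FANCF in 1. Without co-treated library 1, and equally without control library 3, only BRCA1 and RAD54B were called. They are 5.71% of the set, beside 13.2% and 12.4% of all genes called higher in those analyses. In those 2 analyses the edgeR adjusted p was 0.0524 and 0.0563 for EXO1, 0.082 and 0.0885 for ATM, 0.107 and 0.113 for RAD50, 0.125 and 0.123 for FANCM, 0.101 and 0.131 for FANCB, 0.0788 and 0.0645 for CHEK2, and 0.138 and 0.107 for FANCF. Without control library 2, 5 genes were called (ATM, BARD1, BRCA1, FANCB and RAD54B), with EXO1 at an edgeR adjusted p of 0.0507. These 5 are 14.3% of the set, beside 14.1% of all genes called higher. The libraries numbered 1 were the highest of their group in both groups for 12 of the 35 genes (34.3%), beside 15.2% of all tested genes. Without both of them, 5 genes were called higher, BRCA1, BRCA2, FANCM, RAD50 and RAD54B, and XRCC3 was called lower. These are 14.3% and 2.86% of the set, beside 11.7% and 12.6% of all genes.

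Fold changes over all tested genes rose with transcript length. The 35 genes had a median transcript length of 4585 bases, weighted by abundance, beside 3009 bases for all tested genes. Within the set, the median was 4196 bases for the 9 genes called higher and 4657 for the 26 not called. The median GC content of the set was 41.9%, beside 48.5% for the 14377 tested genes with a GC value. Across all tested genes the median log2 fold change was -0.10 for lengths under 2000 bases, 0.05 for 4000 to under 5000 bases and 0.13 for 7000 bases or more. After that trend was removed gene by gene, 5 of the 35 genes were higher (BRCA1, CHEK2, EXO1, FANCF and RAD54B), beside 15.1% of all genes. Another 4 were lower (ATR, FANCA, FANCC and PALB2), beside 17.6%, and the median was 0.02. BRCA1 then stood at 0.16 (edgeR adjusted p = 0.0134), RAD54B at 0.26 (0.00716), EXO1 at 0.17 (0.016), CHEK2 at 0.29 (0.0117) and FANCF at 0.38 (0.0444). The other 4 calls ended: ATM stood at 0.12 (edgeR adjusted p = 0.115), RAD50 at 0.26 (0.0606), FANCM at 0.33 (0.0563) and FANCB at 0.18 (0.0567). ATR became lower, at -0.16 (edgeR adjusted p = 0.0476), and so did PALB2, at -0.18 (0.0261), FANCC, at -0.17 (0.033), and FANCA, at -0.12 (0.0347). With length and GC trends both removed, 6 of the 35 genes were higher (BRCA1, CHEK2, EXO1, FANCF, RAD54B and RAD54L), beside 16.8% of all genes. Another 6 were lower (ATR, BRIP1, FANCD2, PALB2, RAD51AP1 and XRCC3), beside 18.9%, and the median was 0.01. What lies behind the trend with length was not tested.

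**Figure D3:**
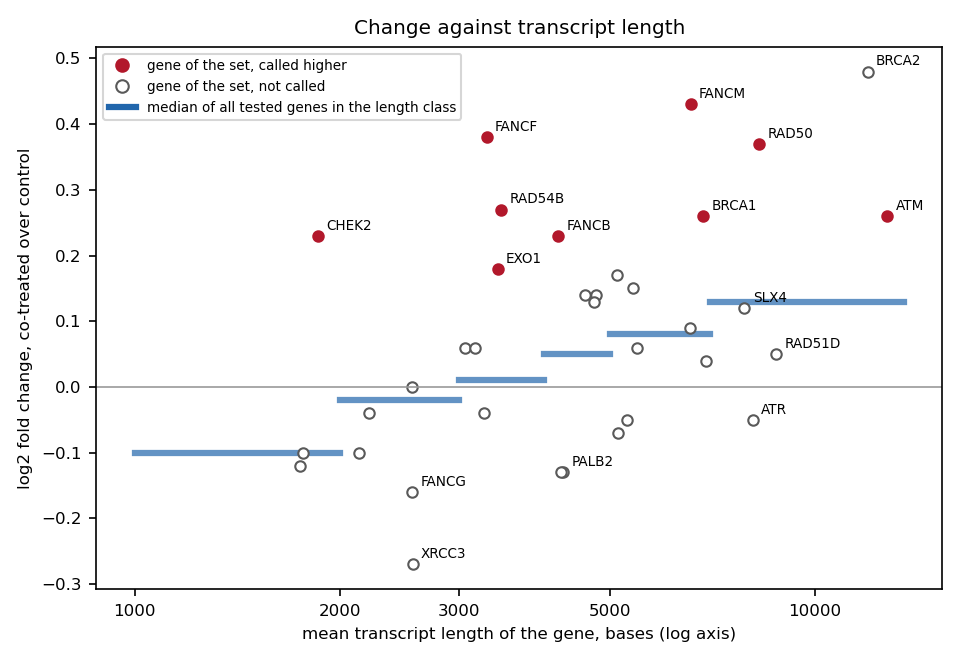
Log2 fold change (y axis, co-treated over control) against mean transcript length in bases (x axis, logarithmic) of each of the 35 genes, red where called higher. Blue bars are the medians of all tested genes in 6 length classes, from -0.10 under 2000 bases to 0.13 at 7000 bases or more. Every gene called higher lies above the bar of its class, as does BRCA2, which was not called. ATR and PALB2 are among the genes below the bar of their class.

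Per length, the genes covered a wide range of levels. FANCI was highest, at 100 ± 4.06 TPM in co-treated and 83.9 ± 3.6 TPM in control cells (SD, n = 3 each). FANCG, FANCA, NBN, TOPBP1 and RBBP8 followed, with control means between 51.9 and 56.8 TPM where neighbours in this order differed by no more than the larger of their SDs. BRCA1 stood at 29.2 ± 1.79 and 23.1 ± 0.931 TPM in co-treated and control cells, above BRCA2 at 13 ± 3.9 and 8.5 ± 2.78 TPM. FANCF was lowest, at 2.72 ± 0.429 TPM in co-treated and 1.9 ± 0.12 TPM in control cells. The TPM scale shifted the median upwards in co-treated cells, though 9.36% of all genes were still called lower with limma on log2(TPM + 1). The median log2 fold change was 0.11 for all genes and 0.21 for the 35 genes. Of the 35 genes, 17 were called higher (48.6%, beside 32.6% of all genes on that scale). With scaling to library size alone those medians were 0.06 and 0.12, and 15 of the 35 genes were called higher (42.9%, beside 23% of all genes called higher and 12.5% called lower). The median of the set exceeded that of all genes by 0.06 in the main analysis and by 0.10 on the TPM scale. That excess was 0.02 with the length trend removed, 0.00 with length and GC trends removed and 0.04 with the GC trend removed alone.

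**Figure D4:**
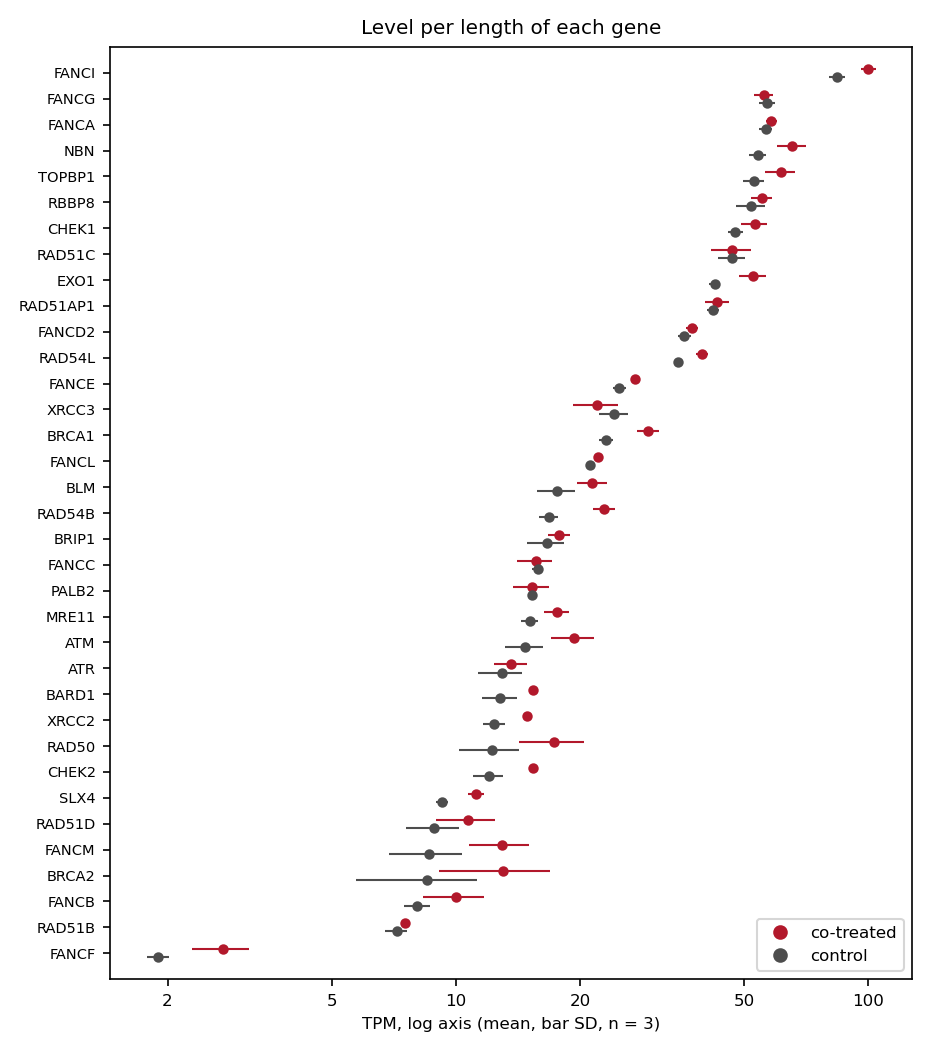
Level per length of each gene in TPM (x axis, logarithmic; mean with SD, n = 3), co-treated in red above control in grey, ordered by the control mean. FANCI is highest at 100 and 83.9 TPM, and FANCF lowest at 2.72 and 1.9 TPM.

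Promoter windows were read for the letters of known motifs, without a test of whether the genes change together. The RefSeq table (GRCh38.p14) gave a window from 250 bases before to 50 bases after the start for 29 of the 35 genes. Windows are printed for BRCA1, EXO1 and CHEK2, which were called higher and have windows of different make-up, for FANCD2, which was not called although it too carries E2F letters, and for XRCC3, the gene with the lowest log2 fold change. Capitals mark matches, on either strand, to the E2F letters (TTTCCCGC, TTTGGCGC, TTTCGCGC or TTTGCCGC), to TTTGAA, the cell-cycle homology region letters, and to the CCAAT box. The windows are, 5′ to 3′ on the gene's strand, chr17:43125315-43125614 on the minus strand, chr1:241847954-241848253 on the plus strand, chr22:28741771-28742070 on the minus strand, chr3:10026187-10026486 on the plus strand and chr14:103715402-103715701 on the minus strand.
BRCA1: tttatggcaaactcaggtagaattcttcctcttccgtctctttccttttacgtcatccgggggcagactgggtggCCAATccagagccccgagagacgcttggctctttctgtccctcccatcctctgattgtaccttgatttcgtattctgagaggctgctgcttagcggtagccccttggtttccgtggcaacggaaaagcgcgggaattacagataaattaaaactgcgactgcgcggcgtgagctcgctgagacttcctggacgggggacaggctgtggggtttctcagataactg
EXO1: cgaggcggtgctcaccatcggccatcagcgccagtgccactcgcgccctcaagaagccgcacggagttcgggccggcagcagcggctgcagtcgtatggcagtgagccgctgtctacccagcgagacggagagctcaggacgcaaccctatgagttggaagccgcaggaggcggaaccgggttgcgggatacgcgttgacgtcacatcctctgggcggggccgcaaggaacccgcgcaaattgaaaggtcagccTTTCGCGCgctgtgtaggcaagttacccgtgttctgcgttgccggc
CHEK2: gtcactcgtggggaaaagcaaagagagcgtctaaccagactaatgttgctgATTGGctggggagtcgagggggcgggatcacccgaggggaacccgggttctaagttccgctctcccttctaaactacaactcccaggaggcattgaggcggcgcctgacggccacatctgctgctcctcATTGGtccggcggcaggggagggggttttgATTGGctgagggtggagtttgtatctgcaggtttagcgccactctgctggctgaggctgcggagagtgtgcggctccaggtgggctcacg
FANCD2: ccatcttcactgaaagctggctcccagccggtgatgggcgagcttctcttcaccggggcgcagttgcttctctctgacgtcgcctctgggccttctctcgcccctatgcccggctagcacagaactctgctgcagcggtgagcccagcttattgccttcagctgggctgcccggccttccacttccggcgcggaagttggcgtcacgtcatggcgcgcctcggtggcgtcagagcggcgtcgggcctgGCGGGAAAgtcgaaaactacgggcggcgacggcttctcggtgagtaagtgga
XRCC3: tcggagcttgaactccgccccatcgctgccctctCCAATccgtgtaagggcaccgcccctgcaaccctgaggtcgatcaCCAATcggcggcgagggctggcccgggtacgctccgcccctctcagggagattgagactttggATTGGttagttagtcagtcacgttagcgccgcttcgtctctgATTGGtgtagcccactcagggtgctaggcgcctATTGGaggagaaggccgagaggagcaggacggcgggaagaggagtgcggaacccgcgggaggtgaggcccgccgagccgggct

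The BRCA1 window holds 1 CCAAT box, 175 bases before the start, and no E2F letters. EXO1 holds E2F letters 4 bases after its first base and FANCD2 holds them 2 bases before it. CHEK2 has 3 CCAAT boxes and XRCC3 has 5. Over the 29 windows, E2F letters were found in 6 (20.7%; EXO1, FANCA, FANCC, FANCD2, TOPBP1 and XRCC2), beside 3.31% of the 35116 windows of the table. Of these 6 genes EXO1 was called higher, and the log2 fold changes of the other 5 ran between -0.13 and 0.14. A CCAAT box was in 13 windows (44.8%, beside 34.6% of all), and TTTGAA in 3 (10.3%, beside 15.2%). The ETS letters CCGGAAGT were in 5 (17.2%, beside 4.14%; BRCA2, PALB2, MRE11, RAD50 and FANCD2), and TATAAA in none (beside 11.5%). No match overlapped one to another motif in the windows of the 29 genes. The 35116 windows cover every start in the table, in genes expressed here or not. The 29 windows lie near the start of each gene's most abundant transcript, so the shares are not like for like. A match describes the letters of the window and is no evidence of binding.

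Some of the 35 genes lie close to another gene's start. Neighbours were sought for the 29 genes with a promoter window, only on the opposite strand and upstream of the gene's start. For 13 of the 29 such a gene starts within 1000 bases in the RefSeq table, and 8 of these neighbours were tested. HSCB, a chaperone of iron-sulphur cluster assembly that starts 212 bases from CHEK2, was lower (-0.31, edgeR adjusted p = 0.0236) where CHEK2 was higher. The HSCB call ended in 10 of the 20 alternative analyses, among them those without co-treated library 1 (-0.25, edgeR adjusted p = 0.0752), co-treated library 3 (-0.30, 0.0645), control library 2 (-0.33, 0.0513) and control library 3 (-0.24, 0.0998). ANKRD49, which starts 140 bases from MRE11, was higher (0.27, edgeR adjusted p = 0.0347). The call of ANKRD49 ended without co-treated library 1 (0.21, edgeR adjusted p = 0.115), co-treated library 2 (0.28, 0.0639), control library 2 (0.20, 0.121) or control library 3 (0.26, 0.0902). NBR2 beside BRCA1 and NPAT beside ATM had log2 fold changes of 0.36 and 0.23 and were not called (edgeR adjusted p = 0.147 and 0.122). The other 4 tested neighbours were not called. The strand setting of the authors' counting is not given in the sources used here, and 11 of the 35 genes overlap another tested gene in span, so reads at those ends could be shared. Pseudogenes named after FANCD2 had between 8 and 40 counts where FANCD2 had at least 4163, and those of CHEK2 had 0.

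Transcript shares were tested in 30 of the 35 genes that kept more than 1 transcript. Only FANCA was called (limma diffSplice adjusted p = 0.0127), beside 1.9% of the 9981 genes tested, and 5 of the 30 had an unadjusted p under 0.05. Transcript variant 1 of FANCA, 5452 bases long, made up 52.1, 44.9 and 43.1% of the gene's TPM in co-treated and 54.1, 56.3 and 58.5% in control libraries. Variant 3, 5456 bases long, made up 37.1, 44.4 and 46.5% in co-treated and 32.2, 29.7 and 28.9% in control libraries. The means of variant 3 were 42.7 ± 4.92% and 30.3 ± 1.72% (SD, n = 3 each), with no overlap between groups. Variants 1 and 3 are nearly equal in length, and an estimated count divides the reads that both could give. The FANCA call ended with edgeR's diffSpliceDGE and when co-treated library 2, co-treated library 3, control library 2 or control library 3 was left out. In NBN, transcript variant 1 took between 8.53 and 78.6% of the gene's TPM among co-treated libraries and between 12.1 and 91.2% among control libraries, a wider spread within each group than between the group means.

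Genes of the same pathways outside the set moved in both directions. Of 38 other homologous recombination genes, 7 were higher (POLQ, ABRAXAS1, FIGNL1, ZSWIM7, WRN, SPIDR and NUCKS1) and 8 lower (SEM1, BABAM1, MUS81, PSMC3IP, RPA3, RPA2, BRCC3 and RPA1), with a median log2 fold change of 0.02. These are 18.4% and 21.1%, near the 16.6% and 17.1% of all tested genes. POLQ, the polymerase of theta-mediated end joining and so of a competing route, had 49.4, 43.6 and 44.8 CPM in co-treated and 34.8, 34.6 and 34.9 CPM in control libraries (0.40, edgeR adjusted p = 0.000447). SEM1, the small BRCA2 cofactor, was lower, at 47.7 ± 1.77 CPM in co-treated and 62.2 ± 5.43 CPM in control cells (-0.38, edgeR adjusted p = 0.00121). Within the BRCA1-A complex, which holds BRCA1 at ubiquitin-marked breaks, BABAM1 was lower (-0.37, edgeR adjusted p = 0.000789) and ABRAXAS1 higher (0.32, edgeR adjusted p = 0.0163). Mean transcript lengths were 1381 bases for BABAM1 and 3148 for ABRAXAS1. The ABRAXAS1 call ended without co-treated library 1 (0.27, edgeR adjusted p = 0.0504) or control library 3 (0.23, 0.0539). All 3 subunits of RPA, the protein that coats resected strands, were lower, with log2 fold changes of -0.14, -0.16 and -0.17 for RPA1, RPA2 and RPA3.

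Of 14 other Fanconi genes, 2 were higher (UBE2W and ERCC4) and 5 lower (CENPX, FAAP20, RFWD3, ERCC1 and UBE2T), with a median of -0.13. These are 14.3% and 35.7%, beside 16.6% and 17.1% of all tested genes. With the length trend removed, 1 was higher and 4 lower (7.14% and 28.6%, beside 15.1% and 17.6%), with a median of -0.06. Leaving out 1 library gave medians between -0.15 (without co-treated library 2 or 3) and -0.06 (without co-treated library 1). CENPX, a histone-fold partner of FANCM, stood at 38.1 ± 2.18 CPM in co-treated and 49.2 ± 3 CPM in control cells (-0.37, edgeR adjusted p = 0.00109). FAAP20, the ubiquitin-binding subunit beside FANCA, stood at 14.1 ± 0.114 and 18 ± 0.357 CPM in co-treated and control cells (-0.35, edgeR adjusted p = 0.00122). CENPX and FAAP20 were lower while FANCM was higher and FANCA was not called. Mean transcript lengths were 795 bases for CENPX and 1262 for FAAP20, beside 6568 for FANCM and 5301 for FANCA. The part of length in this contrast was not tested. UBE2W, a ubiquitin-conjugating enzyme, was higher (0.28, edgeR adjusted p = 0.00549). ERCC4, the nuclease subunit XPF, was higher by 0.20 (edgeR adjusted p = 0.0489), and its call ended in 5 of the 6 analyses that left out 1 library, with adjusted p up to 0.163 (without control library 3, 0.17). Of 19 other checkpoint genes, 2 were higher and 2 lower (10.5% each way, under both shares of all tested genes), with a median of 0.07. TIMELESS and TIPIN, which form the fork protection complex together, were called in opposite directions, at 0.21 and -0.30 (edgeR adjusted p = 0.00354 and 0.000629). Their mean transcript lengths were 5154 and 1890 bases. CDC25A, the phosphatase that CHEK1 targets, was lower (-0.31, edgeR adjusted p = 0.000409). RAD17, the clamp loader, was higher (0.25, edgeR adjusted p = 0.0446). The RAD17 call ended without co-treated library 1 (0.16, edgeR adjusted p = 0.147), co-treated library 3 (0.26, 0.0852), control library 2 (0.26, 0.0852) or control library 3 (0.18, 0.153). None of 6 end protection genes was called.

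Of 41 S phase and E2F target genes, 21 were lower (51.2%, beside 17.1% of all tested genes) and 3 higher (7.32%, beside 16.6%). Their median log2 fold change was -0.12. On the log2(TPM + 1) scale that median was 0.01, beside 0.11 for all genes. There 4 were lower (9.76%, beside 9.36% of all genes) and 4 higher (9.76%, beside 32.6%). Relative to the median of all genes, the S phase median was -0.12 in the main analysis and -0.11 on the TPM scale. MCM2, a subunit of the replicative helicase, stood at 162 ± 11.9 CPM in co-treated and 227 ± 13.2 CPM in control cells (-0.48, edgeR adjusted p = 0.000236). UHRF1, the maintenance methylation factor, was lower as well (-0.45, edgeR adjusted p = 0.00012), as were MCM5 (-0.40) and MCM7 (-0.33). The 3 higher genes were E2F7, an atypical E2F repressor (0.30, edgeR adjusted p = 0.000919), E2F1 (0.16, edgeR adjusted p = 0.0402) and PCNA, the sliding clamp (0.15, edgeR adjusted p = 0.0189). The E2F1 call ended without co-treated library 2 (0.13, edgeR adjusted p = 0.148), co-treated library 3 (0.15, 0.111), control library 1 (0.12, 0.161) or control library 2 (0.17, 0.0682). The PCNA call ended without co-treated library 3 (0.15, edgeR adjusted p = 0.0581) or control library 2 (0.12, 0.0668). CDKN1A, the p21 inhibitor of cyclin-dependent kinases, had 56.8, 65.8 and 68.8 CPM in co-treated and 32.5, 35.8 and 37 CPM in control libraries (0.86, edgeR adjusted p = 2.64e-05). MKI67, a marker of cycling cells, was lower (-0.19, edgeR adjusted p = 0.0116), a call that ended without co-treated library 3 (-0.17, 0.0524) or control library 1 (-0.17, 0.0591). The part of cell cycle state in the values of the 35 genes was not tested.

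**Figure D5:**
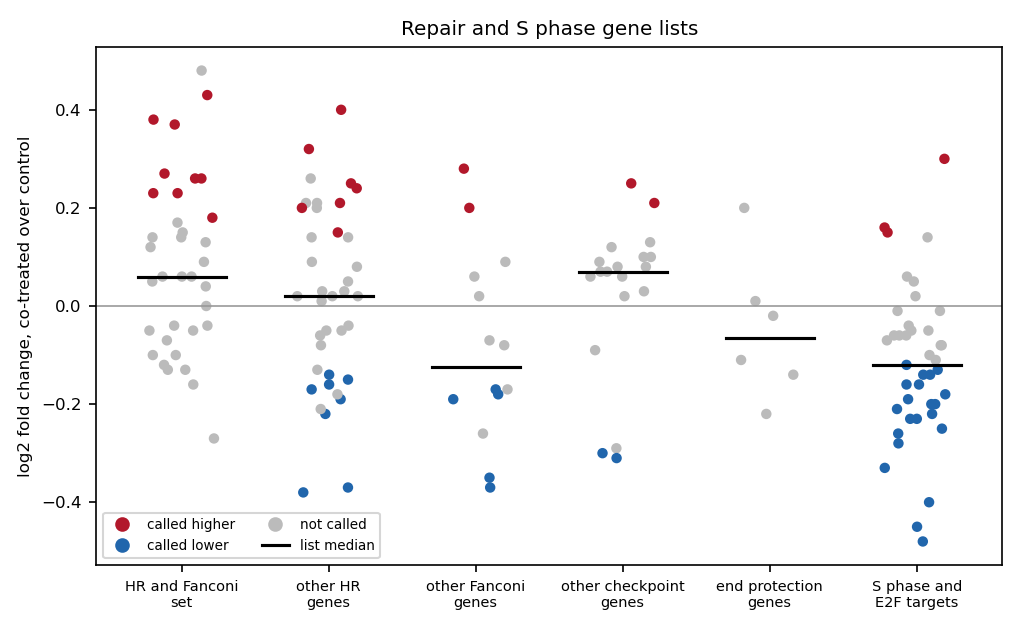
Log2 fold change (y axis, co-treated over control) of every gene in the set of 35 and in 5 further lists, red where called higher, blue where called lower and grey where not called, with the list median as a black bar. The length trend was not removed here. The medians run between -0.13 for the other Fanconi genes and 0.07 for the other checkpoint genes, and the S phase genes, with 21 of 41 called lower, lie mostly below 0.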

How the data were processed

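RNA of 6 libraries of MDA-MB-231/RR cells was measured by sequencing. Reads were handled with Trimmomatic 0.38, HISAT2 2.1.0, SAMtools 1.9 and StringTie 2.1.3b on GRCh38, per the submitters' processing notes. The authors deposited estimated counts, made from the aligned reads before deposit, with FPKM and TPM per gene and per transcript and transcript lengths. FPKM was not used. The column prefix Con was taken for the control libraries and Mo for the co-treated ones. Totals ran between 50569611 and 72309015 counts.

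Counts were rounded and tested with edgeR 4.0.16 (quasi-likelihood, relative log expression factors, filterByExpr with a minimum count of 10, Benjamini-Hochberg adjusted p of 0.05) in R 4.3.3. All 6 libraries entered 1 fit, group was the only term, and p-values were adjusted over all tested genes. Transcript usage was tested with limma 3.58.1 (voom and diffSplice), for transcripts with at least 10 counts in 3 libraries. Length and GC trends were removed with a lowess offset per library (span 0.3). TPM was tested with limma on log2(TPM + 1), with a minimum of 1 TPM, so that its fold changes understate those of low genes. DESeq2 1.42.0, TMM factors, library size scaling, limma-voom, other filters, a replicate block, leaving out each library, and the length correction were the alternatives.

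The members and gene lists were chosen with earlier results of these data known. Genes given with values per library were the called members, BRCA1, BRCA2, ATM, ATR, CHEK1 and FANCD2, with EXO1 and XRCC3 added after their values were seen. In the other lists up to 4 called genes with the largest changes got values. The RPA subunits, E2F7, PCNA, the promoter neighbours and NBN transcripts were named after their values were seen. Withheld genes are not reported here.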

Additional observations from a re-analysis of the deposited data

How the results depend on the processing

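In the main analysis 9 of the 35 genes were called higher (25.7%, beside 16.6% of all genes). Among the 20 alternatives, this count was 15 with library size alone (42.9%, beside 23% of all genes). It was 17 on log2(TPM + 1) and on log2(TPM + 0.1) (48.6% each, beside 32.6% and 32.5%). With the length trend removed it was 5 (14.3%, beside 15.1%). Without both libraries numbered 1, an alternative chosen after seeing the data, it was also 5 (14.3%, beside 11.7%). Leaving out 1 library gave between 2 and 9 (5.71% to 25.7%, beside 12.4% to 14.1% of all genes). The count called lower was 0 in the main analysis, beside 17.1% of all genes. It was 2 with DESeq2 and with a minimum count of 50 (5.71% each, beside 17.2% and 21%). With the length trend removed it was 4 (11.4%, beside 17.6%). With length and GC trends removed it was 6 (17.1%, beside 18.9%). It was also 6 with the GC trend removed alone, added after seeing the data (17.1%, beside 19.3%). Without both libraries numbered 1 it was 1 (2.86%, beside 12.6%). Leaving out 1 library gave between 0 and 2 (0 to 5.71%, beside 12.9% to 14.8% of all genes).

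Of the other 77 pathway genes, 11 were called higher. With library size alone 23 were (29.9%, beside 23% of all genes). In the TPM settings (pseudocount 1, pseudocount 0.1, no filter) 25, 26 and 18 were. These are 32.5%, 33.8% and 23.4%, beside 32.6%, 32.5% and 12.4% of all genes. Without both libraries numbered 1 the count was 7 (9.09%, beside 11.7%). With 1 library left out it was 4 to 10 (5.19% to 13%, beside 12.4% to 14.1%). The 15 lower calls of the 77 genes were 8 with library size alone (10.4%, beside 12.5% of all genes). In each TPM setting they were 6 (7.79%, beside 9.36%, 9.35% and, without a filter, 3.73%). In the main analysis 14.3% of the 77 were higher and 19.5% lower, beside 16.6% and 17.1% of all tested genes. The S phase genes had 3 higher calls, with 5 on log2(TPM + 1) without a filter (12.2%, beside 12.4% of all genes). Without both libraries numbered 1 they had 1 (2.44%, beside 11.7%). With 1 library left out they had 1 to 3 (2.44% to 7.32%, beside 12.4% to 14.1%). The 21 lower calls of the S phase genes were 11 with library size alone (26.8%, beside 12.5% of all genes). In each TPM setting they were 4 (9.76%, beside 9.36%, 9.35% and, without a filter, 3.73%). Without both libraries numbered 1 they were 13 (31.7%, beside 12.6%). With 1 library left out they were 12 to 16 (29.3% to 39%, beside 12.9% to 14.8%). All genes had 4443 and 4434 higher calls on log2(TPM + 1) and log2(TPM + 0.1), and 1276, 1274 and, without a filter, 968 lower calls.

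BRIP1 turned to -0.14 (edgeR adjusted p = 0.0153) with length and GC trends removed. The cause was not tested.

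Deviations of same-numbered libraries from their group means correlated at 0.0691, 0.000448 and -0.0357 over 16557 genes. Not every library correlated best with its own number. Correlations over all genes cannot show whether the numbers pair the libraries in single genes. Among the 35 genes, 12 (34.3%) were highest in the libraries numbered 1 of both groups, beside 15.2% of all tested genes. With the replicate number as a block, 14 of the 35 genes were called higher and 2 lower, beside 19.2% and 19.3% of all genes. BRCA2 was among those called higher (0.49, edgeR adjusted p = 6.5e-06), and 0 were called for transcript usage. Usage calls (1, FANCA) were also 0 with diffSpliceDGE and 0 to 1 with 1 library left out.

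With 3 libraries a group and changes of at most 1.34-fold among the calls, 7 of the 9 calls did not outlast leaving out single libraries. Doses, durations and the origin of the cultures are unknown here, and the single agents were not analysed here.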
